A study of Mus musculus with 12 samples.

Results

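The voltage-gated sodium channel subunit genes Scn10a, Scn4a, Scn7a, Scn2b, Scn3b and Scn4b were followed in RNA sequencing of the mouse left atrium (LA). The 6 genes were picked by name, as alpha and beta subunits of these channels, from 54658 gene names in the count table, and all 6 were among the 13541 names expressed highly enough to be tested. They are not the whole family, since 8 other subunit genes were in the table, 3 of them tested. The 6 were chosen with earlier results of these data known. The study asked what Notch activation in adult cardiomyocytes does to gene expression in the atria. The 6 iNICD mice carried aMHC-rtTA with TetO-NICD, so that doxycycline switched on the Notch intracellular domain under a cardiomyocyte promoter, and the 6 control mice carried aMHC-rtTA alone. All 12 mice were 2 to 3 months old when they started doxycycline chow, were kept on it for 3 weeks and were taken with no washout. The controls, which were littermates, comprised 4 females and 2 males, and the iNICD mice 3 females and 3 males.

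Voltage-gated sodium channels carry the inward current that starts the action potential and sets how fast it spreads from one atrial cardiomyocyte to the next. The alpha subunit forms the pore and its gates, and the beta subunits are single-pass membrane proteins with an immunoglobulin-like outer domain that alter gating, bring the pore to the membrane and join it to neighboring cells. Among the alpha subunits here, Scn10a encodes the tetrodotoxin-resistant channel best known from sensory neurons, and variation in the gene has been linked to cardiac conduction. Scn4a encodes the channel of skeletal muscle, and Scn7a encodes an atypical channel known as a sodium sensor that is found in glia. Scn2b and Scn4b encode beta subunits that bind the pore through a disulfide bond, and Scn3b encodes one that binds without it. The LA was sequenced as whole tissue, in which fewer cells of a type and less RNA per cell cannot be told apart.

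Total counts ranged from 21432632 to 27182038 per library. Notch1, which the transgene's reads can be assigned to, was at 108 to 131 normalized CPM in controls and at 2980 to 4080 in iNICD LA, so every library matched its label. Control replicate 5 stood apart from the other libraries, with the value of -77.4 on the first principal component against -20.2 to 7.98 in the other 5 controls, and the change of each member in which it was the lowest control is also given without it. Normalized CPM is the count of a gene divided by the library's total count and scaled to a common depth, after correction of each library by trimmed mean of M values (TMM). A gene was called changed when its adjusted p was under 0.05 in edgeR's quasi-likelihood test over all 13541 genes.

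Stretches of 30 bases around the motif matches in the region before the start of Scn10a, Scn4b and Scn7a are printed first, since these are the members that hold a match to a Notch-related motif. RBPJ is the DNA-binding partner of the Notch intracellular domain, and the factors of the HES and HEY families are products of its target genes. The sequences are from RefSeq on GRCm38.p6, read 5′ to 3′ on the strand of the gene, with the match in capitals.
Scn10a, RBPJ core: cgtgacgggaaaTGGGAAtggcacccacga
Scn10a, N-box: agcagggtggaaCTCGTGacgggaaatggg
Scn4b, N-box: ccgctgcccttaCTCGTGttctctgagcgg
Scn7a, RBPJ core: ccgactggatccTTCCCAgggagcagggga
The first Scn10a stretch is at chr9:119719090-119719119 on the minus strand, and its match starts 75 bases before the RefSeq start. The second is at chr9:119719104-119719133, with its match 89 bases before the start, so that both stretches of Scn10a share bases. The Scn4b stretch is at chr9:45138462-45138491 on the plus strand, 150 bases before the RefSeq start, and the Scn7a stretch is at chr2:66785096-66785125 on the minus strand, 203 bases before it. In the GENCODE annotation the Scn10a and Scn4b stretches fall in noncoding exon sequence and the Scn7a stretch falls outside the gene. The search covered 250 bases before the start on both strands, and 5 of the 6 members had an entry. The RBPJ core TGGGAA was present in 21.6% of 32851 promoters, and the N-box CACNAG of HES factors, read as CTNGTG on the other strand, in 36.7%. The E-box CACGTG, found in 6.02% of promoters, and the T-box site AGGTGT, found in 11.8%, were in none of the 5 windows. A match here describes the letters only.

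In iNICD LA, Scn10a fell and the other 5 subunit genes did not pass the test. Scn10a was 2.87-fold lower by the group means. Scn2b was lower and Scn4b higher by point estimate, both short of the threshold, and Scn4a, Scn7a and Scn3b differed little between the group means. Of the 6 members 0 were called higher and 1 was called lower. Among all tested genes 4.12% were called, comprising 2.78% called higher and 1.34% called lower. The median log2 fold change was -0.087 over the members and -0.0061 over all tested genes. An unadjusted p under 0.05 was found for 4 of the 6 members and for 17.4% of all tested genes. As the members were chosen with earlier results of these data known, this count only describes them and tests nothing about the set. Scn2b, among these 4, entered the test mainly through its control libraries.

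**Figure D1:**
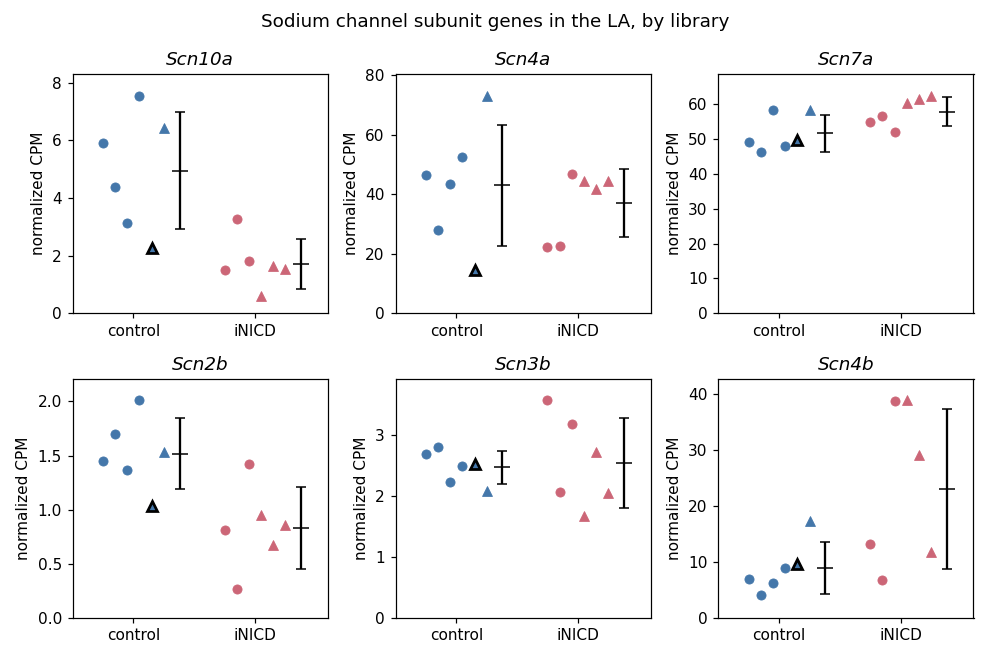
Normalized CPM of each subunit gene (y axis, each panel with its own linear scale from 0) in the 6 control (blue) and 6 iNICD (red) LA libraries, with circles for female and triangles for male mice, control replicate 5 outlined in black, and the mean ± SD beside each group. For Scn10a 5 of 6 iNICD libraries lie below every control, and for Scn4b 3 of 6 lie above every control.

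Among the alpha subunits, Scn10a lies on chromosome 9 (GRCm38, chr9:119608456-119719322, minus strand; ENSMUSG00000034533.10). Scn10a had 48 to 191 counts per control library and 16 to 74 per iNICD library. Its normalized CPM in controls 1 to 6 was 5.92, 4.39, 3.14, 7.54, 2.25 and 6.43, and in iNICD replicates 1 to 6 it was 1.5, 3.26, 1.82, 0.606, 1.63 and 1.52. Only iNICD replicate 2 reached into the control range, and control replicate 5, the library that stood apart, was the lowest control. The mean fell from 4.95 ± 2.04 to 1.72 ± 0.864 (SD, n = 6 each), a log2 fold change of -1.52 (SE 0.37, 95% interval -2.32 to -0.73, adjusted p = 0.0347). The exact permutation test over libraries gave p = 0.00649 (two-sided). Without control replicate 5 the control mean was 5.49 ± 1.73, every remaining control was at 3.14 or more, and the log2 fold change was -1.67 with an adjusted p of 0.0121.

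The call for Scn10a was close to the threshold. It was kept when control replicate 3, control replicate 5 or iNICD replicate 2 was left out, and it was lost when any 1 of the other 9 libraries was left out, with adjusted p between 0.0121 and 0.0826 and log2 fold changes between -1.80 and -1.35. With the replicate number of the titles as a block, the log2 fold change was -1.51 and the adjusted p was 0.11.

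Scn4a, at chr11:106318592-106353288 on the minus strand (ENSMUSG00000001027.7), had the widest range of normalized CPM in controls. Its normalized CPM was 46.4, 27.9, 43.4, 52.6, 14.5 and 73.0 in controls 1 to 6, and 22.3, 22.6, 46.8, 44.4, 41.7 and 44.4 in iNICD replicates 1 to 6. The iNICD libraries all lay within the control range, whose ends were control replicates 5 and 6. The means were 43.0 ± 20.2 and 37.0 ± 11.4 (SD, n = 6 each), and the log2 fold change was -0.21 (SE 0.33, 95% interval -0.92 to 0.49, adjusted p = 0.778), an interval that spans a fall and a rise. The estimate was -0.39 without control replicate 5 and 0.0032 without control replicate 6.

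Scn7a, at chr2:66673425-66784914 on the minus strand (ENSMUSG00000034810.7), was the steadiest of the members. Its normalized CPM was 49.0, 46.1, 58.3, 47.9, 49.8 and 58.2 in controls 1 to 6, and 54.7, 56.4, 51.9, 60.3, 61.3 and 62.3 in iNICD replicates 1 to 6. All 6 iNICD libraries were above the control median of 49.4, and 3 were above every control. The coefficient of variation was 10.3% in controls and 7.17% in iNICD LA, and the means were 51.5 ± 5.32 and 57.8 ± 4.14 (SD, n = 6 each). The log2 fold change of 0.17 (SE 0.08, 95% interval 0.0013 to 0.33) had an adjusted p of 0.283 and an exact permutation p of 0.0476, so this small difference did not hold after adjustment over all genes.

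The beta subunit genes Scn2b, Scn4b and Scn3b all lie on chromosome 9, as does Scn10a. Scn2b is at chr9:45117782-45130070 (ENSMUSG00000070304.12) and Scn4b follows it on the same plus strand at chr9:45138395-45154152 (ENSMUSG00000046480.6), with 8324 bases between them. Scn3b is at chr9:40269217-40291618, also on the plus strand (ENSMUSG00000049281.16).

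Scn2b was close to the limit of the expression filter. Over 1 CPM was reached in 5 control libraries and 1 iNICD library, so the gene entered the test mainly through the group in which it was higher. Its counts were 22 to 51 in controls and 6 to 39 in iNICD LA. Its normalized CPM was 1.45, 1.70, 1.37, 2.01, 1.03 and 1.53 in controls 1 to 6, and 0.81, 0.265, 1.42, 0.95, 0.67 and 0.86 in iNICD replicates 1 to 6. All iNICD libraries but replicate 3 were below every control. The means were 1.51 ± 0.33 and 0.83 ± 0.378 (SD, n = 6 each), a log2 fold change of -0.86 (SE 0.30, 95% interval -1.5 to -0.21) with an adjusted p of 0.148 and an exact permutation p of 0.00649. Scn2b was thus not called among all genes. Without control replicate 5 the log2 fold change was -0.94 with an adjusted p of 0.0923.

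Scn4b had the largest spread in iNICD LA. Its normalized CPM was 6.95, 4.10, 6.16, 8.97, 9.64 and 17.3 in controls 1 to 6, and 13.2, 6.83, 38.7, 38.8, 29.0 and 11.7 in iNICD replicates 1 to 6. The iNICD libraries lay in 2 ranges, with replicates 3, 4 and 5 above every control and replicates 1, 2 and 6 within the control range. The means were 8.85 ± 4.59 and 23.0 ± 14.2 (SD, n = 6 each), 2.6-fold apart. The log2 fold change was 1.38 (SE 0.45, 95% interval 0.41 to 2.36, adjusted p = 0.118), and the exact permutation test gave p = 0.0541 on normalized CPM and p = 0.0455 on its log2 scale. DESeq2 called Scn4b higher with an adjusted p of 0.0218, as did the exact test of edgeR with an adjusted p of 0.0385, where 4.54% and 3.63% of all genes were called higher.

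Scn3b was at a low level in both groups. Its normalized CPM was 2.69, 2.80, 2.23, 2.49, 2.53 and 2.08 in controls 1 to 6, and 3.57, 2.07, 3.18, 1.67, 2.72 and 2.05 in iNICD replicates 1 to 6. The iNICD libraries lay on both sides of the control range. The means were 2.47 ± 0.272 and 2.54 ± 0.738 (SD, n = 6 each), with a coefficient of variation of 11% in controls and 29.0% in iNICD LA. The log2 fold change was 0.04 (SE 0.19, 95% interval -0.37 to 0.45, adjusted p = 0.935), and its sign depended on which library was left out.

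**Figure D2:**
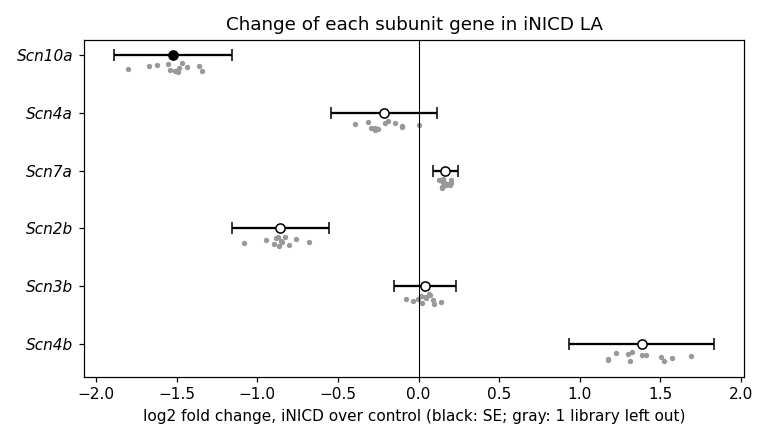
Log2 fold change of each subunit gene in iNICD over control LA (x axis), with black points for the estimate of edgeR's quasi-likelihood fit, filled where called, and bars for ± SE derived from its F statistic. Gray points are the 12 fits that each left out 1 library. Only Scn10a, at -1.52, is filled, and the gray points of Scn3b lie on both sides of 0.

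To compare levels between genes, normalized CPM was divided by the gene length in kilobases that the authors gave. In controls Scn7a was highest at 7.02 ± 0.725 normalized CPM per kilobase and Scn4a next at 6.10 ± 2.87, and the ranges of both overlapped (6.29 to 7.94 against 2.06 to 10.4). Scn4b followed at 1.78 ± 0.922, with a range from 0.822 to 3.47. The remaining control levels per kilobase were 0.621 ± 0.256 for Scn10a, 0.453 ± 0.0498 for Scn3b and 0.325 ± 0.0709 for Scn2b, neighbors whose ranges overlapped.

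In iNICD LA the order per kilobase differed in its lower part. Scn7a was at 7.88 ± 0.564 and Scn4a at 5.26 ± 1.62, with no overlap of their ranges (7.07 to 8.49 against 3.16 to 6.65), and Scn4b, at 4.62 ± 2.86, overlapped with both. The means were 0.466 ± 0.135 for Scn3b, 0.216 ± 0.108 for Scn10a and 0.178 ± 0.0811 for Scn2b. The range of Scn3b, 0.305 to 0.655, overlapped with that of Scn10a, 0.0761 to 0.41, and that of Scn2b, 0.0568 to 0.306, and in iNICD replicate 2 Scn10a was above Scn3b. Scn10a was thus the fourth in the order of control means and the fifth in that of iNICD means.

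Whether 2 subunit genes moved differently was tested on their log2 ratio within each library, which does not depend on scaling between libraries. Of the 15 pairs of members, 8 had a ratio that differed between iNICD and control LA (Benjamini-Hochberg adjusted p under 0.05 over the 15 pairs, exact permutation test, two-sided). The unadjusted p was under 0.05 for 9 of the 15 pairs, and for 43.3% of all pairs of a member with any other tested gene, so a differing ratio was common for these genes. All pairs are among genes chosen with earlier results of these data known, and pairs that share a gene are not independent. The count of 8, adjusted over these 15 pairs alone, therefore only describes the members and tests nothing about the set. All of the 8 but Scn4a over Scn4b include Scn10a, already called, or Scn2b, which entered the test mainly through its control libraries.

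The ratio of Scn2b to its neighbor Scn4b was the 1 ratio of the 15 that did not overlap between the groups, as was the case for 4.28% of all pairs of tested genes, a share near that of the members. Scn2b entered the test mainly through its control libraries, as given above, so the 3 ratios with Scn2b that passed are a description and support nothing further. The log2 ratio was -2.20, -1.23, -2.11, -2.11, -3.13 and -3.43 in controls 1 to 6, and -3.90, -4.32, -4.69, -5.24, -5.27 and -3.64 in iNICD replicates 1 to 6. Every iNICD library was below every control. The mean log2 ratio fell from -2.37 ± 0.796 to -4.51 ± 0.68 (SD, n = 6 each), a difference of -2.14 with an exact permutation p of 0.00217, the smallest that 6 against 6 libraries can give, and an adjusted p of 0.026.

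Scn10a fell relative to each of 4 other members. Against Scn4b the log2 ratio went from -0.80 ± 0.829 to -3.54 ± 1.61 (exact permutation p = 0.00649, adjusted p = 0.026). The difference in log2 ratio was -1.68 against Scn7a (adjusted p = 0.026), -1.51 against Scn3b (adjusted p = 0.026) and -1.39 against Scn4a (adjusted p = 0.0379), all by the exact permutation test. Scn10a and Scn2b, the members with the lowest fold changes, differed by -0.60 in log2 ratio (adjusted p = 0.403).

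The 3 other pairs that passed were Scn4a over Scn4b, with a difference of -1.35, Scn7a over Scn2b, with 1.08, and Scn2b over Scn3b, with -0.91, on the log2 scale. Among the 7 pairs that did not pass, Scn7a over Scn4b had a difference of -1.06 (adjusted p = 0.0886) and Scn4a over Scn3b one of -0.11 (adjusted p = 0.805, exact permutation tests). The number of pairs that passed was between 1 and 11 when single libraries were left out. It was 1 without control replicate 1 or without control replicate 4, 4 without control replicate 2 and 5 without iNICD replicate 5.

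**Figure D3:**
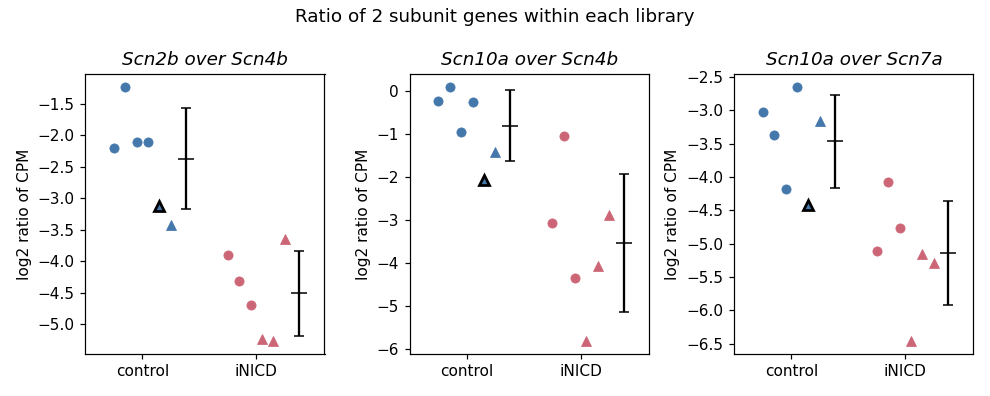
Log2 ratio of the levels of a pair of subunit genes within each library (y axis) for Scn2b over Scn4b, Scn10a over Scn4b and Scn10a over Scn7a, in 6 control (blue) and 6 iNICD (red) LA libraries, with circles for female and triangles for male mice, control replicate 5 outlined in black, and the mean ± SD beside each group. The groups do not overlap for Scn2b over Scn4b, where controls end at -3.43 and iNICD libraries start at -3.64.

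Both groups held females and males, so the change of each member was compared between the sexes. The interaction of sex and genotype was called for 0 of 6 members (edgeR quasi-likelihood, adjusted p from 0.916 to 0.948) and for 0 of all tested genes, with 501 at an unadjusted p under 0.05. DESeq2 called 1 gene, none of the members, with 613 genes at an unadjusted p under 0.05. With 2 to 4 mice per sex and group, a difference between the sexes in the change of a subunit gene could not be told from its spread.

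The genes that lie beside the members were examined, taking the 3 tested genes on each side. Of 30 neighbors that are not members, 2 were called, or 6.67%, beside 4.12% of all genes. Both lie beyond Scn4b on the side away from Scn2b. Tmprss13, a transmembrane serine protease gene at chr9:45319100-45347581, went from 2.17 to 6.13 normalized CPM (log2 fold change 1.49, SE 0.38, adjusted p = 0.0436). Fxyd6, a regulator of the sodium pump at chr9:45370185-45396159, went from 35.8 to 68.6 normalized CPM (log2 fold change 0.94, SE 0.19, adjusted p = 0.0145). Il10ra, the interleukin 10 receptor gene between Scn4b and these, had a log2 fold change of 0.15 (adjusted p = 0.762). On the other side, next to Scn2b, the cell adhesion genes Jaml, Mpzl3 and Mpzl2 had log2 fold changes of 0.11, -0.32 and -0.75, none of them called.

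**Figure D4:**
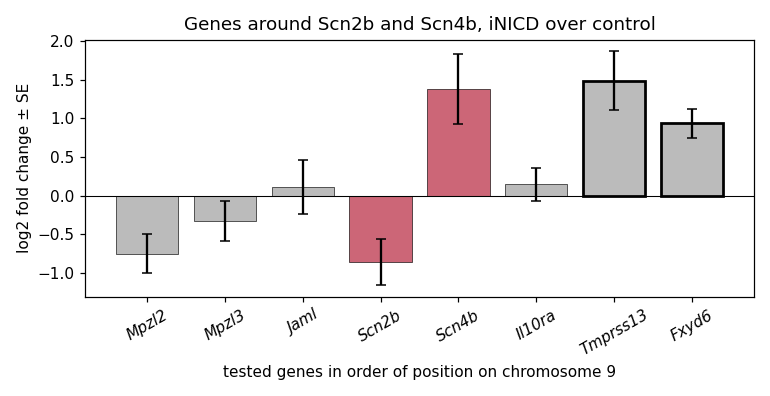
Log2 fold change ± SE (edgeR, iNICD over control LA, y axis) of the tested genes around Scn2b and Scn4b, in order of position on chromosome 9 (x axis, not to scale), with members in red and genes called changed outlined in black. Scn2b, at -0.86, and Scn4b, at 1.38, lie on opposite sides of 0 and neither is outlined, while Tmprss13, at 1.49, and Fxyd6, at 0.94, are.

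The genes whose log2 CPM was most like that of each member over the 12 libraries were then listed, as a description in which all points share libraries, depth and group. For Scn10a these were Adap1, Ppp1r13b and Mfsd13a, with Pearson r of 0.957, 0.936 and 0.935. Adap1, which encodes an ArfGAP protein, kept r at 0.91 after group means were subtracted and 0.967 without control replicate 5, and it fell in iNICD LA (log2 fold change -1.13, adjusted p = 0.0063). Ppp1r13b, a p53-binding protein gene, also fell (log2 fold change -0.31, adjusted p = 0.026). For Scn4b the most similar genes were Me1, which encodes malic enzyme, Gphn, which encodes the receptor anchor gephyrin, and Hsd17b4, which encodes a peroxisomal fatty acid enzyme, with r of 0.942, 0.919 and 0.903.

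For Scn2b they were Shc1, Guca1b and A930017M01Rik, with r of 0.922, 0.915 and 0.901. Scn4a was most like Pot1a, a telomere-binding protein gene (r = 0.936), Syngr2 and Ubl3. Scn7a was most like Borcs7 (r = 0.916), Nptn and Nprl3, and Scn3b was most like Neurl1b (r = 0.861), Atad2 and Uhrf1. None of these 12 genes was called changed, nor were the 3 most like Scn4b.

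Fixed lists gave the proteins that bind sodium channels and the transcription factors known to act on their genes. Of 22 partner genes, all tested, 1 rose and 0 fell, and their median log2 fold change was -0.0077. Among all tested genes 4.12% were called, near the share in this list. Ank3, which encodes the ankyrin that anchors sodium channels to the cytoskeleton, rose from 167 ± 13.7 to 211 ± 17.7 normalized CPM (SD, n = 6 each; log2 fold change 0.34, SE 0.07, adjusted p = 0.02). Fgf13 and Fgf14, intracellular factors that bind the channel's tail, had log2 fold changes of 0.23 (adjusted p = 0.453) and 0.25 (adjusted p = 0.41). The kinase gene Camk2d had a log2 fold change of 0.16 and the scaffold gene Dlg1 one of -0.07, and neither passed.

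Of the 9 transcription factors, all tested, 0 rose and 1 fell, with a median log2 fold change of -0.10. Among all tested genes 1.34% were called lower, and 1 call is too few to describe the list. Tbx5, a T-box activator of genes for atrial rhythm and conduction, fell from 428 ± 82.4 to 268 ± 24.8 normalized CPM (SD, n = 6 each; log2 fold change -0.67, SE 0.12, adjusted p = 0.00494). Tbx3, a T-box repressor of the conduction system, had a log2 fold change of -0.31 (adjusted p = 0.402), and Hey2, a Notch target repressor, one of 0.18 (adjusted p = 0.63). In the full lists of 10 alpha and 4 beta subunit genes, 5 and 4 genes were tested, and Scn10a was the only one called.

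Markers of the cells that the LA could hold were read in the same libraries. Atrial cardiomyocyte markers moved with the groups: 5 of 8 fell and 0 rose, and their summed level ranged from 85900 to 110000 normalized CPM in controls and from 56800 to 69900 in iNICD LA. The upper end in controls was replicate 5, and the other controls reached 96900. Nppa, the atrial natriuretic peptide gene, made up most of the difference in the sums, with 24200 ± 3870 and 4820 ± 2060 normalized CPM (SD, n = 6 each). Nppa fell by 2.33 on the log2 scale (adjusted p = 0.000339), and the atrial light chain gene Myl4 fell by 0.75 (adjusted p = 0.00032). Myh6 and Ryr2, also on the list, had log2 fold changes of -0.03 and 0.07 and were not called. The part of these changes in the lower level of Scn10a was not tested.

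Of the 12 neuron markers, which bear on Scn10a, 2 were tested and 0 called, their sum was 6.70 to 14.5 normalized CPM in controls and 6.07 to 12.1 in iNICD LA, and Chat was at 0 in all libraries. Most of the sum came from Uchl1, at 4.37 ± 2.13 and 5.62 ± 1.91 normalized CPM (SD, n = 6 each), and Stmn2, at 2.53 ± 0.935 and 2.53 ± 0.512, and the part of neuronal RNA in the level of Scn10a was not tested. Schwann cell markers, which bear on Scn7a, gave 0 calls of 8 tested of 10, with sums of 93.4 to 122 in controls, or 104 to 122 without replicate 5, and 103 to 127 in iNICD LA. Skeletal muscle markers, which bear on Scn4a, gave 1 call of 3 tested of 8, the fast troponin gene Tnni2, which rose from 1.11 to 3.53 normalized CPM (log2 fold change 1.68, adjusted p = 0.0312). Their sum was 3.61 to 26.5 in controls and 7.34 to 29.5 in iNICD LA, with the control maximum in replicate 5, where Scn4a was lowest, and a maximum of 12 in the other controls, and Myod1 was at 0 in all libraries. The part of skeletal muscle RNA in the level of Scn4a was not tested.

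Of the fibroblast, endothelial, smooth muscle and immune lists, with 9, 7, 6 and 5 genes tested, 0 genes were called. Their summed levels overlapped between the groups, at 6760 to 9610 against 7740 to 10000 normalized CPM for fibroblasts, 815 to 1120 against 752 to 920 for endothelium, 396 to 572 against 421 to 617 for smooth muscle and 111 to 147 against 114 to 168 for immune cells. Control replicate 5 set 1 end of each of these control ranges, and without it they were 8120 to 9610, 815 to 983, 396 to 486 and 122 to 147. Of the 4 ventricular markers, 2 were tested and 0 called. Their sum, from 21.2 to 2160 normalized CPM in controls and from 17.5 to 2230 in iNICD LA, was carried almost wholly by 1 gene. The ventricular light chain genes on the list stayed low in all 12 libraries, Myl2 at 0.231 to 3.22 and Myl3 at 0.786 to 3.13 normalized CPM, and Irx4 was at 0. The right atrial marker Bmp10 was at 1.12 to 31.6 normalized CPM in controls and 0.0757 to 10.1 in iNICD LA and was not called.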

How the data were processed

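The authors removed ribosomal RNA from LA RNA, sequenced each LA on its own and deposited, for each gene name, the unnormalized read count on mm10. The labels' processing notes name cutadapt, STAR 2.4.2a, Subread with featureCounts and edgeR. The study's methods give TopHat2 with HTSeq for LA reads, leaving out mitochondrial ones, and featureCounts with another STAR version for work on both atria, and the table does hold mitochondrial genes (37). The strand setting of the counting is not given in the sources used here. The genes Gm10684 and Gm47266, which overlap Scn2b and Scn3b on the other strand, had 0 counts. Another deposited column, the authors' gene length in bases, was used for levels per kilobase. The members and gene lists were chosen with earlier results of these data known, and Scn10a, Scn2b and Scn4b are also on an arrhythmia list that the study drew from these libraries.

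Gene names with over 1 CPM in at least 6 libraries (13541) were fitted with edgeR 4.0.16 in R 4.3.3, using TMM and the quasi-likelihood test (two-sided), and p-values were adjusted over all of them after Benjamini and Hochberg, with a threshold of 0.05. The SE was derived as the absolute log2 fold change divided by the square root of the test's F statistic. The 95% intervals are from this SE and the t distribution with the fit's degrees of freedom. Ratios of members used log2 CPM with a prior count of 2. Single levels were tested by an exact permutation test over 924 arrangements, whose p is printed unadjusted. P-values measure the spread between these libraries. No pair of libraries was counted as a duplicate, since the chi-square per gene was at least 16.7 for every pair within a group. On simulated counts for 13541 genes of this comparison, 89% of 100 genes with a 2-fold change and 100 of 100 with a 4-fold change were recovered, with 3 false among 192 calls. The changed genes were drawn at random, and the simulated libraries held no outlying library and no effect shared between genes. These shares therefore do not say how often a change of a member, at its own level and spread, would be found.

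Replicate numbers are shared by the groups, and a check of whether they pair the libraries is given with the alternatives, which were DESeq2 1.42.0, the exact test, other scalings and filters, sex as a covariate, each sex alone, replicate blocks, each library left out, no mitochondrial genes, a 1.5-fold change and robust dispersions. Named beside the members are neighbors (3 tested genes on each side), the 3 most similar genes, called genes of the fixed lists with up to 4 others, and Notch1. Positions are from GENCODE on GRCm38. Further sodium channel subunit genes are given only as counts, and right atrial libraries were not analysed here.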

Additional observations from a re-analysis of the deposited data

How the results depend on the processing

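Scn10a was lower under all 26 alternatives (log2 fold change -1.81 to -1.26, adjusted p 0.00125 to 0.775) and was called in 14 of them. The number of members called lower was 1, and 0 with the replicate block, in female mice alone and in male mice alone, and it ranged from 0 to 1 when single libraries were left out. The number called higher was 0, and 1 (Scn4b) with DESeq2 and 1 with the exact test of edgeR. Scn2b, Scn7a and Scn4b kept their direction under all 26 alternatives. Scn4a ranged from -0.393 to 0.0032 when single libraries were left out, with the sign turned without control replicate 6. Its log2 fold change was -0.474 in female mice alone and -0.02 in male mice alone. Scn3b was 0.205 in female mice alone and -0.12 in male mice alone, and it ranged from -0.0808 to 0.138 when single libraries were left out. Of the 15 pairs of members, 8 passed, and 1 to 11 when single libraries were left out. Over all genes 558 were called, 1059 with DESeq2, 799 without control replicate 5, 8 in male mice alone and 315 with a 1.5-fold change required. Robust dispersions were added after the data were seen and changed no call of a member. Libraries with the same replicate number in the titles had correlated deviations from the group means of 0.201, 0.133, -0.107, -0.153, 0.278 and 0.372 (mean 0.12), and with the numbers of the descriptions, which differ for 2 controls, 0.201, 0.133, -0.107, 0.176, 0.053 and 0.372 (mean 0.138). In neither was every value over 0.1, and these values do not settle whether the numbers pair the libraries. The main fit used no replicate block, since the study describes none. The replicate block gave 468 calls over all genes and changed no other call of a member, and with the numbers of the descriptions Scn10a was called with an adjusted p of 0.0279. The causes of these changes were not tested. Counts of 6 to 51 for Scn2b limit the precision of its change.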
